A study of Homo sapiens with 12 samples.

Results

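Long noncoding RNA genes that carry small nucleolar RNAs (snoRNAs) or microRNAs inside their transcripts were collected from the RNA-seq tables of Nutlin-3a-treated HCT116 and RPE-1 cells. A gene was taken when its symbol was SNHG followed by a number, began with MIR and ended with HG, or was GAS5, and MIR34AHG was left out. This gave 73 of the 25914 listed genes, namely 28 snoRNA hosts and 45 microRNA hosts. All 73 were annotated as lncRNA in the tables. The series holds 12 libraries, with 3 each of HCT116 with DMSO, HCT116 with Nutlin-3a, RPE-1 with DMSO and RPE-1 with Nutlin-3a. HCT116 is a line from a colon carcinoma, RPE-1 is an hTERT-immortalized retinal pigment epithelial line, and the genotype label of every library is wild-type. Nutlin-3a, which keeps MDM2 from binding p53, was used at 10 µM, and every library was made after 24 h of treatment.

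The deposited tables give 1 value per gene that is not a result of the comparison itself. This is the base mean, the authors' mean of normalized read counts over libraries. The base mean was the same in both tables for every gene, so it belongs to neither cell line and neither treatment. Which libraries it averages is not stated in the tables. The fold changes and p-values of the comparison of Nutlin-3a with DMSO were not used here, and no value per library was at hand. The values below therefore describe how strongly the host genes were represented in the averaged libraries, and they say nothing about the response to Nutlin-3a. The identity of each cell line could not be checked against marker genes on a mean over libraries. There is no spread between replicates for any value, the depth of each library is unknown, and the classes were described without a test.

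As background, snoRNAs guide the chemical modification of ribosomal and spliceosomal RNA. Box C/D snoRNAs direct methylation of the ribose and box H/ACA snoRNAs direct pseudouridylation. In vertebrates most of them are cut out of introns of a host gene, and the spliced host transcript that remains is often short-lived because it is removed by nonsense-mediated decay. Many such hosts belong to the 5′ terminal oligopyrimidine (5′ TOP) genes, whose transcripts start with a C followed by a run of pyrimidines. MicroRNAs are cut from primary transcripts by DROSHA and DGCR8, exported by XPO5, trimmed by DICER1 and loaded into Argonaute proteins. They recognize target transcripts mainly through the seed, bases 2 to 8 of the mature strand, so that microRNAs with the same seed are grouped as a family.

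The microRNA hosts held 118 mature microRNA sequences in RefSeq (GRCh38.p14), found in 42 of the 45 genes, and these had 93 distinct seeds. Only 8 seeds occurred in more than 1 host, and 10 hosts were involved. The most widely shared seed was that of let-7, a family known for restraining proliferation and marking differentiation. It was present in 6 hosts, which were MIR100HG, MIRLET7BHG, MIRLET7A1HG, MIR4458HG, MIR99AHG and MIR4500HG. The mature strands with this seed are shown because they connect more hosts than any other. Capitals mark the seed, and sequences run 5′ to 3′.
hsa-let-7a-5p: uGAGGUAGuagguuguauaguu
hsa-let-7b-5p: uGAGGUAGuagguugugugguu
hsa-let-7c-5p: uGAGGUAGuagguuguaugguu
hsa-let-7d-5p: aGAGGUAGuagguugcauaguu
hsa-let-7f-5p: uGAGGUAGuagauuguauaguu
hsa-miR-4458: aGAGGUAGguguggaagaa
hsa-miR-4500: uGAGGUAGuaguuucuu
The let-7a-5p strand lay in 3 hosts. On the genome it was at chr11:122146568-122146589 on the minus strand in MIR100HG, at chr22:46112752-46112773 on the plus strand in MIRLET7BHG and at chr9:94175962-94175983 on the plus strand in MIRLET7A1HG. The strand of miR-4458 was at chr5:8460933-8460951 on the plus strand, and that of miR-4500 at chr13:87618671-87618687 on the minus strand.

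MIR100HG and MIR99AHG carry related clusters on chromosomes 11 and 21, each with a let-7 gene, a miR-125b gene and a gene of the miR-99/100 family. The strands of the latter and the shared miR-125b-5p strand are shown beside the 2 strands of MIR222HG, which share 1 seed, and those of the other well-represented hosts MIR4435-2HG, MIR22HG and MIR31HG.
hsa-miR-100-5p: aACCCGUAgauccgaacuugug
hsa-miR-99a-5p: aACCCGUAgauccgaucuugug
hsa-miR-125b-5p: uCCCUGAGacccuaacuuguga
hsa-miR-221-3p: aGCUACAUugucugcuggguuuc
hsa-miR-222-3p: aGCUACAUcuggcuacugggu
hsa-miR-4435: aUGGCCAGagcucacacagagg
hsa-miR-22-3p: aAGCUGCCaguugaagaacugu
hsa-miR-31-5p: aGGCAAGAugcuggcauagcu
The miR-9 pair of seeds was shared by MIR9-1HG and MIR9-3HG, and a pair of miR-181 seeds by MIR181A1HG and MIR181A2HG. The remaining shared seed was that of let-7a-3p, in MIRLET7A1HG and MIRLET7BHG.

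The snoRNA hosts were among the best represented lncRNAs of the tables. Their base means ran from 3.72 to 16647 with a median of 463, against a median of 11.8 over all 5168 listed lncRNA genes and 150 over all listed genes. A base mean of at least 100 was reached by 22 of the 28 snoRNA hosts. In the background, 54.0% of all listed genes and 10.6% of the listed lncRNA genes reached it. Base means are not corrected for the length of a gene, so levels of different genes were compared per kilobase (kb) of exons of the canonical GENCODE transcript. This scale was added after seeing the data, beside the planned one per kb of all annotated exons. Reads were counted on the exons of a gene, not on those of its canonical transcript alone. The canonical scale therefore gives higher values than the planned one to genes with many other annotated exons. For SNHG29, 0.443 kb of 8.947 kb of exons are canonical. On the canonical scale the median of the snoRNA hosts was 290 per kb, that of the listed lncRNA genes 11.6 per kb and that of all listed genes 73.4 per kb.

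SNHG29 (ENSG00000175061, chromosome 17 from 16438767 to 16480249) had the highest base mean of the hosts, 16647, and also the highest level per length, 37578 per kb. SNHG16 (ENSG00000163597), on the same chromosome from 76557727 to 76670985, had a base mean of 6429 and 12910 per kb. GAS5 (ENSG00000234741), a growth arrest-associated transcript known to accumulate when translation stalls, lies on chromosome 1 from 173858559 to 173868882 and had a base mean of 4161. GAS5 had 5418 per kb, and these 3 genes held the first 3 places among the snoRNA hosts by base mean and per kb of canonical exons.

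Length changed the order of the hosts that followed. SNHG7 had a base mean of 2705 and 1148 per kb. SNHG14, which runs across the imprinted Prader-Willi region of chromosome 15, had a base mean of 1973 but only 282 per kb, since its canonical transcript has the longest exon sequence of the class. SNHG8 had 1839 and 298 per kb. Its base mean was therefore close to those of SNHG3 (1731) and SNHG1 (1721), whereas its level per length was below theirs of 787 and 1481 per kb. SNHG6 had a base mean of 1469 and 806 per kb. SNHG19 had a base mean of 1007 and, with only 0.394 kb of canonical exons, 2555 per kb, next after GAS5.

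At the lower end, 6 snoRNA hosts stayed below a base mean of 100. SNHG25 was just under it with 97.9, and SNHG20 just above it with 123. SNHG25 and SNHG9 (86.8) are both short, and per length they had 315 and 256 per kb, close to the median of the class. The other 4 were low on both scales. SNHG21 had a base mean of 18.0 and 22.8 per kb, and SNHG31 13.9 and 6.32 per kb. SNHG22 (5.45) and SNHG27 (3.72, the lowest of the class) were near the lowest base mean that the tables list, 2.91.

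The microRNA hosts were represented more weakly by their median. Their base means ran from 3.37 to 1459 with a median of 44.9, and the median per length was 36.9 per kb. A base mean of at least 100 was reached by 14 of the 45 genes. MIR4435-2HG (ENSG00000172965), a gene on chromosome 2 from 111006015 to 111523376, stood first by base mean (1459) and per kb of canonical exons (1700). MIR100HG (ENSG00000255248) followed with 1299 and 724 per kb. It spans chromosome 11 from 122028325 to 122556721.

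MIR22HG had a base mean of 726 and 252 per kb, and MIR222HG, the host of miR-221 and miR-222, had 597 and 433 per kb. MIR31HG followed with 434 and 253 per kb. MIR193BHG and MIR1915HG had almost equal base means, 360 and 357, but their canonical exons differ in length, and per length they had 67.1 and 616 per kb. The let-7 hosts MIRLET7BHG and MIRLET7A1HG had base means of 345 and 260, and 395 and 413 per kb. MIR600HG had a base mean of 212 and 35.4 per kb.

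MIR646HG (109) was the last microRNA host above a base mean of 100, and MIR17HG (90.7), the host of the miR-17-92 cluster known for its role in proliferation, the first below it. Per length MIR17HG had 121 per kb and MIR646HG 30.4 per kb, so their order was the opposite. The lowest base mean among the microRNA hosts was that of MIR2052HG with 3.37.

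**Figure D1:**
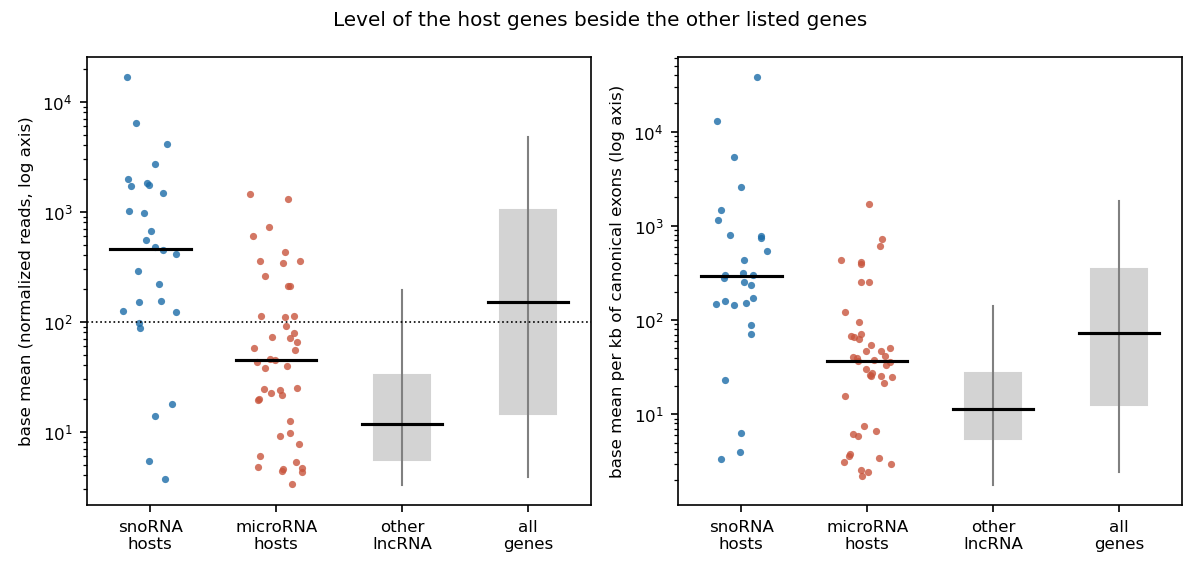
Base mean (left) and base mean per kb of canonical exons (right) on log axes. Points are single host genes, black lines are medians, and for other lncRNA genes and all listed genes the grey boxes span the quartiles and the thin lines the 5th to 95th percentiles. The dotted line marks a base mean of 100. The snoRNA hosts have a median of 463 (290 per kb) and the microRNA hosts one of 44.9 (36.9 per kb), with wide overlap of the points.

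Between the classes, the median base mean of the snoRNA hosts was 10.3 times that of the microRNA hosts. The ratio was 7.86 per kb of canonical exons and 8.68 per kb of all annotated exons. The ranges overlapped. Of the 28 snoRNA hosts, 24 lay above the median per kb of the microRNA hosts, and of the 45 microRNA hosts 6 lay above the median per kb of the snoRNA hosts. Only 4 snoRNA hosts (SNHG29, SNHG16, GAS5 and SNHG19) exceeded MIR4435-2HG per kb, and 5 microRNA hosts lay below the lowest snoRNA host. Both classes had most of their members above the median of the listed lncRNA genes per kb, with 25 of 28 snoRNA hosts and 33 of 45 microRNA hosts. Above the upper quartile of the lncRNA genes were 24 and 26 of them.

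The order of single genes per length depended on the exons that were counted. Per kb of all annotated exons merged, MIR4435-2HG had 42.6 per kb and MIR100HG 43.1 per kb, because more than 30 kb of exons are annotated for each, and MIR22HG led the microRNA hosts with 234 per kb. On that scale SNHG29 had 1861 per kb, SNHG19 1640 per kb, SNHG16 1113 per kb and GAS5 844 per kb. There 11 snoRNA hosts exceeded every microRNA host, and 24 of 45 microRNA hosts lay above the median of the listed lncRNA genes. Which transcripts were made in these cells is not known from the tables, so a level per length is given for the annotated exons only.

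**Figure D2:**
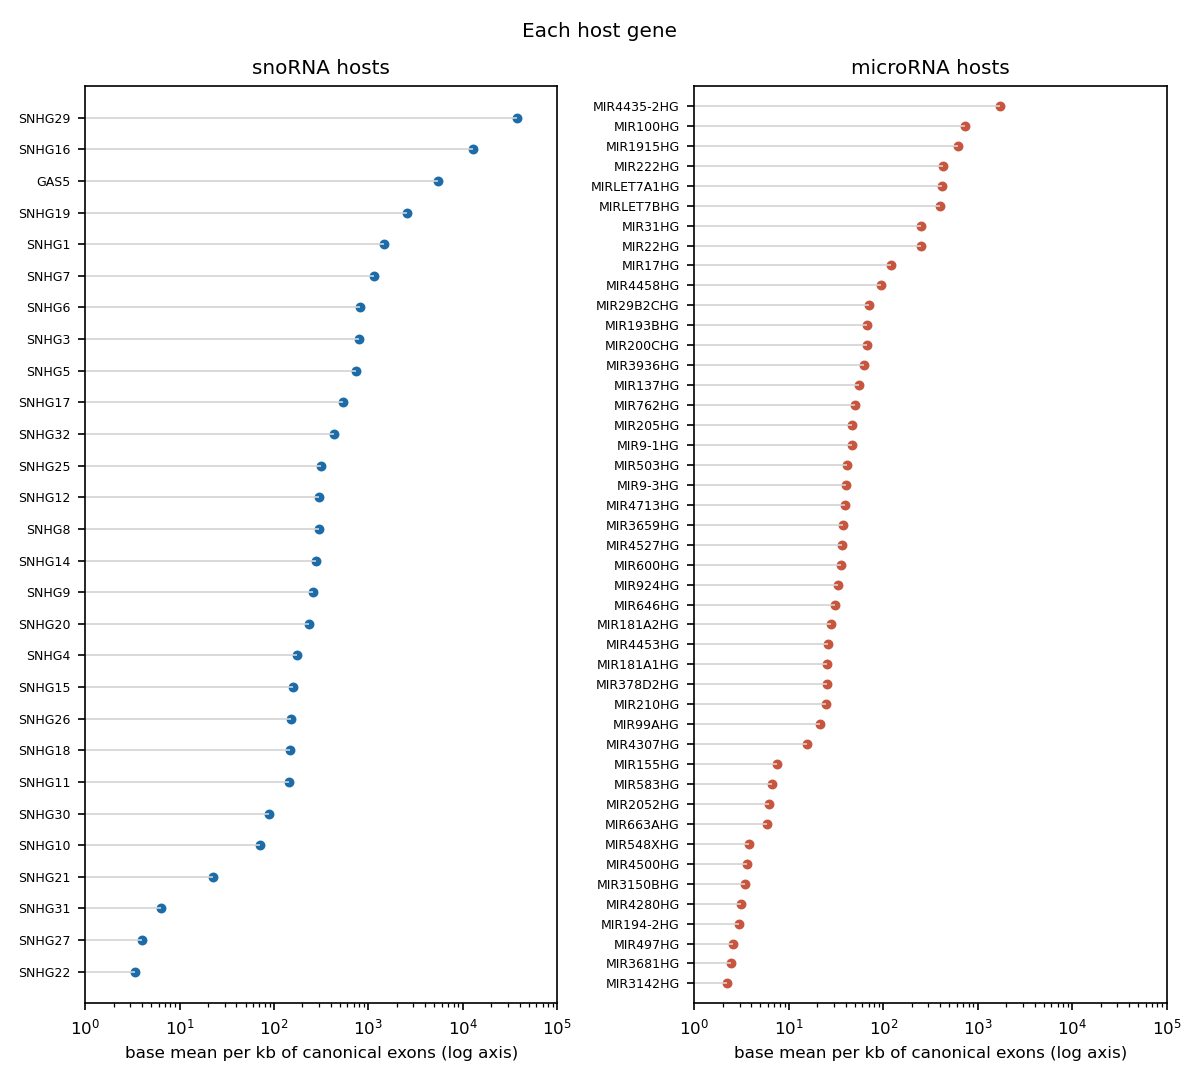
Base mean per kb of canonical exons of each of the 28 snoRNA hosts (left) and 45 microRNA hosts (right), on a shared log axis. SNHG29, SNHG16 and GAS5 lead the snoRNA hosts with 37578, 12910 and 5418 per kb, and MIR4435-2HG leads the microRNA hosts with 1700 per kb.

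Hosts of the let-7 seed differed widely in level. Among the 6 hosts of the let-7 seed, MIR100HG had 724 per kb, MIRLET7A1HG 413 per kb and MIRLET7BHG 395 per kb. MIR4458HG had 94.3 per kb and MIR99AHG 21.2 per kb, and MIR4500HG was lowest with 3.61 per kb. Per kb of merged exons MIRLET7A1HG was highest with 55.8, before MIRLET7BHG with 53.5 and MIR100HG with 43.1. MIR4500HG stayed lowest with 0.372. The let-7 genes in MIR100HG and MIRLET7BHG lie outside the canonical transcripts whose length was used. Of the related clusters, MIR100HG had the higher base mean, 1299 against 44.9 for MIR99AHG. The hosts of miR-9 were close to each other, with 46.5 per kb for MIR9-1HG and 40.6 per kb for MIR9-3HG. The hosts of miR-181 had 25.5 per kb (MIR181A1HG) and 27.7 per kb (MIR181A2HG) of canonical exons, but they were further apart on the other scales. MIR181A1HG was higher by base mean (45.9 against 20.01) and lower per kb of merged exons (5.56 against 18.9). Host levels are levels of the exons of the host transcript, and mature microRNAs were not measured.

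**Figure D3:**
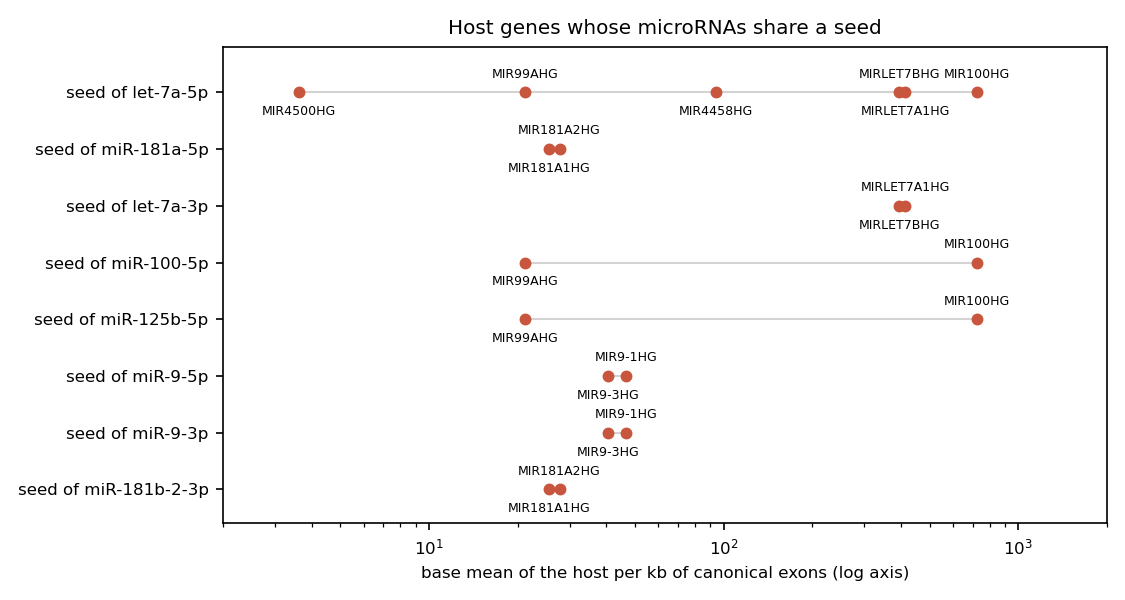
Base mean per kb of canonical exons (log axis) of the hosts whose mature microRNAs share a seed, 1 row per seed and 1 point per host. The 6 hosts of the let-7a-5p seed run from 3.61 per kb (MIR4500HG) to 724 per kb (MIR100HG), whereas the hosts of miR-9 and of miR-181 lie close together on this scale. For miR-181 this does not hold per kb of merged exons (5.56 and 18.9). On that scale MIRLET7A1HG (55.8) and not MIR100HG (43.1) is the highest let-7 host.

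Nearly every host carried a small RNA gene of the kind of its class. The hosts were chosen by symbols that refer to such genes, so this describes the annotation and is no separate result. The share among other lncRNA genes is not given here. In GENCODE 44, 27 of the 28 snoRNA hosts contained a snoRNA or scaRNA gene (scaRNAs are the related guide RNAs of Cajal bodies) wholly inside their span on the same strand, and all 45 microRNA hosts contained a microRNA gene. The exception was GAS5, for which RefSeq places 11 snoRNA genes inside the span, among them SNORD44, SNORD47 and SNORD81. The snoRNA hosts held 139 such genes in GENCODE, and 84 of them, mainly copies of SNORD115 and SNORD116, lay in SNHG14. SNHG1 held 7, and SNHG12 and SNHG17 held 5 each. Of the 139 records, 5 overlap another record of the same host (in SNHG7, SNHG12, SNHG19 and SNHG25), which leaves 134 separate positions. SNORA16A in SNHG12 is 1 of those listed more than once. The microRNA hosts held 72 microRNA genes, with 6 in MIR17HG and 4 in MIRLET7BHG.

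Whether the small RNA genes lay in introns depended on the transcripts considered. In an intron of every annotated transcript lay 57 of the 139 genes in snoRNA hosts and 34 of the 72 in microRNA hosts. For the canonical transcript alone, a choice made after seeing the data, the numbers were higher. Of the 139 genes in snoRNA hosts, 86 lay in an intron of the canonical transcript, 6 overlapped one of its exons and 47 lay outside it. Of the 72 microRNA genes, 54 lay in such an intron, 11 overlapped an exon and 7 lay outside the canonical transcript. MIR22, MIR155, MIR137 and MIR600 were among the microRNA genes that overlapped an exon of their host. Long spans were more frequent among the microRNA hosts, where 16 of 45 exceeded 100 kb, against 3 of 28 snoRNA hosts. The median lengths of the canonical exons were 1.40 kb for microRNA hosts and 1.28 kb for snoRNA hosts.

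Few of the small RNAs were themselves listed. The tables list 8 of the 139 snoRNA and scaRNA genes inside snoRNA hosts, and 4 of the 72 microRNA genes inside microRNA hosts. All 8 lie in an intron of every annotated transcript of their host, as do the 4 microRNA genes except MIR221. No snoRNA or scaRNA gene that overlaps an exon of its snoRNA host was listed. Whether such overlap kept small RNAs from being counted was not tested. The share of all annotated small RNA genes that is listed was not computed. SNORA73B, a box H/ACA snoRNA in an intron of SNHG3, had a base mean of 5408, above that of its host (1731). SNORD104 in SNHG25 had 134, against 97.9 for the host. The 6 other listed snoRNAs inside snoRNA hosts had base means from 3.08 (SNORD1B in SNHG16) to 59.3 (SNORA74A in SNHG4). In the microRNA hosts, the gene of miR-221 had a base mean of 21.1 and that of miR-222 one of 3.01. No small RNA libraries are among the samples, so these values are no measure of mature snoRNAs or microRNAs.

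The annotated 5′ ends were searched for the start of 5′ TOP transcripts. A start was counted when its first base was a C and began a run of at least 5 bases of C or T, read on the strand of the gene. Promoter sequences of RefSeq (GRCh38.p14) were found for 24 snoRNA hosts and 36 microRNA hosts. The run was present in 6 of the 24 snoRNA hosts and in 1 of the 36 microRNA hosts, MIR762HG, and in 4.07% of all 35116 promoters. The 6 starts are shown with 10 bases before and 20 bases from the start on, in capitals for the run.
SNHG12 (chr1:28581854-28581883, minus strand): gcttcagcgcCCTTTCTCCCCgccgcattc
SNHG5 (chr6:85678714-85678743, minus strand): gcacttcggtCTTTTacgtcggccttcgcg
SNHG32 (chr6:31834906-31834935, plus strand): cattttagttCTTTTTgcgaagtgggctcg
SNHG19 (chr16:2155339-2155368, minus strand): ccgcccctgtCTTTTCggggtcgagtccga
SNHG4 (chr5:139274091-139274120, plus strand): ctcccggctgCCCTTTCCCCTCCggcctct
SNHG18 (chr5:9546190-9546219, plus strand): gccgcgccgcCTCCTCCTCCTCCTCCTCCC
In SNHG18 the run goes on past the 30 bases shown and reaches 21 bases, as part of a repeat of CTC. At the other end, the start of SNHG1 had a run of only 3 bases that is broken by an A.
SNHG1: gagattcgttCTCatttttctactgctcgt
GAS5: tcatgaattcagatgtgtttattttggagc
SNHG29: ccttttgtgaggattgggatattccgactc
The RefSeq starts of SNHG29, SNHG16 and GAS5, the 3 hosts with the highest base means of the class, had no C at the first base. The GAS5 window (chr1:173869026-173869055, minus strand) lies upstream of its GENCODE span, which ends at 173868882. The SNHG29 window (chr17:16438977-16439006, plus strand) lies inside its GENCODE span, which starts at 16438767. For these hosts the sequences shown are therefore not those of the GENCODE gene start, and a pyrimidine run at another start is not excluded. The table holds 1 start per gene, which need not be the one used in these cells. When the run could begin within 5 bases of the start, it was found in 11 of 24 snoRNA hosts and 13 of 36 microRNA hosts, and in 21.1% of all promoters. At the start of the canonical GENCODE transcript it was present in 3 of 28 snoRNA hosts and 1 of 45 microRNA hosts, beside 3.84% of all listed genes with such a start, so the share among snoRNA hosts depends on which start is taken.

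Opposite-strand starts near the 5′ end were counted because pairs of opposite-strand promoters are the subject of the study. The paper found its pairs from CAGE-seq peaks, whereas here a start was the outer end of an annotated GENCODE gene. The paper reports that most downstream antisense starts overlap no annotated start. These counts therefore do not measure the paper's convergent promoters. A divergent start was one on the opposite strand at most 400 bp upstream, and a convergent start was one 2 to 2500 bp downstream. A divergent start was annotated for 7 of the 28 snoRNA hosts and 2 of the 45 microRNA hosts. In the background it was 13.5% of all listed genes and 14.7% of the listed lncRNA genes. The neighbour was protein-coding for 5 of the 28 snoRNA hosts (17.9%, 95% binomial interval 7.88% to 35.6%) and 1 of the 45 microRNA hosts. That share was 8.03% over all listed genes and 12.1% over the listed lncRNA genes, both inside the interval. SNHG1 shares its upstream region with SLC3A2, the heavy chain of amino acid transporters, at 51 bp, and SNHG9 lies 54 bp from RPS2, a ribosomal protein gene. SNHG19 was paired with TRAF7 at 293 bp, SNHG18 with SEMA5A at 95 bp and SNHG22 with ACAA2 at 12 bp. The base means of these neighbours were 6556 for SLC3A2, 12281 for RPS2, 6380 for TRAF7, 846 for SEMA5A and 697 for ACAA2. Each was above the base mean of its host. Base means are not corrected for length, and these pairs were not compared per kb, where the order may differ. The microRNA hosts with a divergent start were MIR4453HG, 172 bp from FBXW7, and MIR4307HG.

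Convergent starts were annotated for 3 of 28 snoRNA hosts and 6 of 45 microRNA hosts. The share was 15.9% over all listed genes and 22.4% over the listed lncRNA genes. Neither class stood above the background in annotated starts. Among the snoRNA hosts, GAS5 faced ZBTB37 at 800 bp, SNHG10 faced GLRX5 at 1386 bp, and SNHG29 faced a lncRNA gene without a symbol at 2185 bp. The GAS5 start was taken at the end of its GENCODE span, 173868882. From a start more than 800 bp further into the gene, ZBTB37 would lie upstream, and the pair would not be convergent. Other starts of GAS5 were not examined here. Among the microRNA hosts, MIR22HG faced WDR81 at 651 bp and MIR3936HG faced the carnitine transporter gene SLC22A5 at 460 bp. MIRLET7BHG and MIR9-3HG faced lncRNA genes. MIR3150BHG and MIR762HG faced the microRNA genes MIR3150A at 268 bp and MIR4519 at 101 bp. MicroRNAs are cut from primary transcripts, so the annotated end of a microRNA gene need not be a start of transcription. Some hosts also lay close to each other. SNHG17 and SNHG11 were 10933 bp apart on chromosome 20, SNHG3 and SNHG12 67645 bp apart on chromosome 1, and SNHG9 and SNHG19 189282 bp apart on chromosome 16, each pair on opposite strands.

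**Figure D4:**
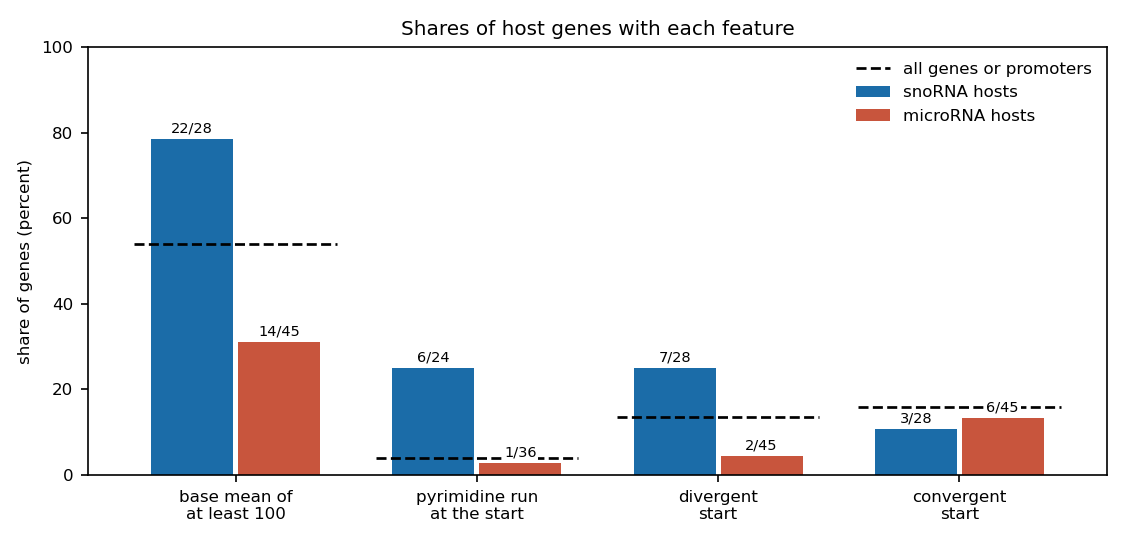
Share of snoRNA hosts and microRNA hosts (bars, percent) with a base mean of at least 100 and with a pyrimidine run at the RefSeq start. The other bars give the share with an annotated divergent start and with an annotated convergent start. Counts stand above the bars, and dashed lines give the share over all listed genes or all promoters (54.0%, 4.07%, 13.5% and 15.9%). Over the listed lncRNA genes, not drawn, it was 10.6% for the base mean, 14.7% for divergent starts and 22.4% for convergent starts. The classes are furthest apart in the share with a base mean of at least 100.

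The proteins that act on the small RNAs and on the host transcripts were all listed, and all had base means of at least 100. The 8 core proteins of snoRNPs, the particles that hold snoRNAs, had a median of 2078 per kb, from 568 per kb for GAR1 to 4628 per kb for NHP2. FBL, the methyltransferase of box C/D snoRNPs, had 4598 per kb, and DKC1, the pseudouridine synthase of box H/ACA snoRNPs, had 1533 per kb. The 10 genes of microRNA processing had a lower median of 403 per kb, from 67.6 per kb for AGO3 to 735 per kb for TARBP2. The nucleases DROSHA and DICER1 had 411 and 275 per kb. The 10 genes of nonsense-mediated decay had a median of 366 per kb, from 170 per kb for UPF3B to 1245 per kb for SMG5. The helicase UPF1 had 1005 per kb. These levels are per kb of canonical exons. By base mean the medians were closer, at 3147 for the snoRNP proteins, 2001 for microRNA processing and 2135 for nonsense-mediated decay. The highest base mean of the 3 lists was that of AGO2, 9148.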

How the data were processed

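The 12 libraries were RNA-seq of HCT116 and RPE-1 cells with 10 µM Nutlin-3a or DMSO for 24 h, 3 per group. Library preparation is given as rRNA depletion in the labels but as poly(A) selection in the paper, and this was not resolved. Per the submitters' processing notes and the paper, reads were trimmed (Trimmomatic 0.39, Cutadapt), mapped to hg38, kept where uniquely mapped (SAMtools 1.12) and counted on exons by strand (featureCounts), and the authors compared Nutlin-3a with DMSO in DESeq2. Reads of near-identical copies, such as SNORD116 genes, could be lost at the mapping step. The deposited signal is the base mean, the authors' mean of counts divided by size factors. It carries no replicates, so no error could be given. The other deposited columns hold the authors' log2 fold changes, standard errors, statistics and p-values, and were not used. No column per library was present, and the count test planned for that case was not run.

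Host classes were set by symbol. The members and lists were chosen with earlier results of these data known. Gene spans, exons and small RNA genes came from GENCODE 44 (the same genome build, a later release than that of the authors), in which 25836 of 25914 listed genes were found. Promoters and mature microRNAs came from RefSeq on GRCh38.p14, and the 44 microRNA hosts and 28 snoRNA hosts found there were matched by symbol. Base means were divided by kb of canonical or of all merged exons. Named genes were GAS5, the 10 hosts of each class with the highest base mean, the lowest, those next to a base mean of 100, and those with the most small RNA genes. Neighbours, hosts with a shared seed and hosts with a pyrimidine run were named after their values were seen. Functions that count runs and neighbours were tested on simulated data. Alternatives were other limits, runs, distances, neighbour types and exon sets, of which 4 were added after seeing the data. Python 3.11.15, numpy 2.4.6, pandas 2.3.3 and scipy 1.17.1 were used.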

Additional observations from a re-analysis of the deposited data

How the results depend on the processing

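The direction of the difference in median between the classes held under every alternative run, with ratios of 7.86 to 10.3. Leaving out GAS5 alone could hardly have reversed it. GAS5 was the only host without a nested gene of its class in GENCODE. Leaving it out and keeping only hosts with such a gene were therefore the same alternative, with a ratio of 10.1 in both. That filter removed no microRNA host, so their 14 of 45 with a base mean of at least 100 could not change. Of 35 recomputed values, 22 stayed within the 95% binomial interval of the reported share or within 1.5 times the reported ratio, and 13 moved. The 22 include these repeated values. With a limit of 10 on the base mean, 92.9% of snoRNA hosts and 75.6% of microRNA hosts were above it, and with a limit of 1000 it was 35.7% and 4.44%, which follows from the limits. The share with a pyrimidine run was 45.8% of snoRNA hosts and 36.1% of microRNA hosts with a start within 5 bases, 10.7% of snoRNA hosts at the canonical transcript start (chosen after seeing the data), and 0% of microRNA hosts for runs of at least 7. Convergent starts within 1000 bp were found for 3.57% of snoRNA hosts, and protein-coding ones for 4.44% of microRNA hosts. Small RNA genes inside an intron of all transcripts were found in 42.9% of snoRNA hosts and 55.6% of microRNA hosts, and inside an intron of the canonical transcript in 80.0% of microRNA hosts (chosen after seeing the data). No paired analysis was possible because the tables give only a mean over libraries, which also kept single libraries from being left out and the planned count test from being run. The depth per library is unknown, so the error of a low base mean cannot be given.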

Other observations

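The tables list 92 snoRNA genes and 80 microRNA genes in their own right, and 9 and 4 of them lie inside the host genes described here. Outside the hosts, the highest base mean of a snoRNA was that of SNORD3A with 4505, the U3 snoRNA that acts in cleavage of the ribosomal RNA precursor, and the highest of a scaRNA was that of SCARNA5 with 762. The 83 snoRNA genes outside the hosts had a median base mean of 8.22, and the 76 microRNA genes outside the hosts one of 4.52.

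Spearman's rho was taken between the number of snoRNA genes that RefSeq places in a snoRNA host and its base mean per kb of canonical exons. It was 0.62 over 28 genes. The canonical scale was added after seeing the data, and the value on the planned scale is not given here. The scales can place a host differently. SNHG14, which holds 84 of these snoRNA genes, had 282 per kb of canonical exons and 16.1 per kb of all annotated exons. The RefSeq numbers disregard strand, and they give GAS5 11 snoRNA genes where GENCODE gives 0. Many hosts hold the same small number, so the ranks contain many ties. Among the microRNA hosts the same value for microRNA genes was 0.17 over the 44 genes found in RefSeq. These are descriptions across genes that share the same libraries.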
